A study of Mus musculus with 9 samples.

Results

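The dopamine and noradrenaline receptor genes described here were the listed members of this receptor family that a probe set with a single platform gene symbol measured in mouse anterior cingulate cortex. Of 10 listed genes, 6 were measured, among 22180 genes in all. The measured genes were the D1-class dopamine receptors Drd1 and Drd5, the D2-class receptors Drd2 and Drd4, and the adrenergic receptors Adra1b and Adra2c. The alpha-1 receptor genes Adra1a and Adra1d, the alpha-2 receptor gene Adra2a and the beta receptor gene Adrb1 were not analysed here: the annotation used named no probe set for any of them alone. Where a gene had several probe sets, the one with the highest mean over the 9 arrays was used, which concerned Drd5 among these genes.

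Mice of the widely used inbred strain C57BL/6J formed 3 groups of 3, and each array carries total RNA of one sample of microdissected anterior cingulate cortex (1.34 to -0.5 mm from bregma); the labels give no age. Ketamine mice received 3 mg/kg intraperitoneally at ZT5, counted in hours from lights on; ketamine blocks the NMDA class of glutamate receptor. Sleep-deprived mice spent ZT0 to ZT12 awake in a cage with a slowly turning bar, with no injection given in the labels, and saline mice were injected with saline at ZT5. All tissue was taken at ZT13, that is 8 h after injection and 1 h after deprivation ended. The saline mice are therefore not matched to the sleep-deprived mice for injection, and an injection and enforced waking cannot be told apart in that comparison.

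Dopamine reaches this cortex in axons from the ventral midbrain, and noradrenaline in axons from the locus coeruleus, whose neurons fire most in waking. The receptors for both are G protein-coupled. D1-class receptors raise cyclic AMP through stimulatory G proteins, and D2-class and alpha-2 receptors lower it through inhibitory G proteins. Alpha-1 receptors act through Gq and phospholipase C. Together they tune how cortical neurons respond to arousal, attention and reward.

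The comparisons of the 3 groups ask whether a low dose of ketamine or a rest phase spent awake leaves the transcripts of these receptors at a different level. No such difference was detectable with 3 arrays per group. In limma, with Benjamini-Hochberg adjustment over all genes, 0 of the 6 receptors passed an adjusted p of 0.05 in ketamine against saline, in sleep deprivation against saline, or in ketamine against sleep deprivation. The share of all genes that passed was 0% in each of these comparisons (0 of 22180). Without the adjustment, 0 receptors had p under 0.05 in any comparison, while 4.57%, 3.52% and 9.48% of all genes did, in the order just given. Without sleep-deprived array 3, 2 receptors (Adra2c and Drd4) had an unadjusted p under 0.05 in ketamine minus sleep deprivation, and the count over all genes was 4763 in place of 2103. The differences below are of log2(intensity + 16) ± SE from the fit to all 9 arrays, and the offset understates changes of dim genes. In bulk tissue, fewer cells of a type and less RNA per cell cannot be told apart.

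Drd1 encodes the main receptor that couples dopamine to cyclic AMP production, and in cortex it is found on pyramidal neurons of several layers. Its intensity was 120.9, 135.6 and 93.5 in the ketamine arrays, 123.2, 143.1 and 122.0 in the sleep-deprived arrays, and 119.6, 117.3 and 131.5 in the saline arrays. Ketamine array 3 was the lowest of the 9 and sleep-deprived array 2 the highest, and every group overlapped every other. The mean was 117 ± 21.4 after ketamine, 129 ± 11.8 after sleep deprivation and 123 ± 7.60 after saline (SD, n = 3 each). The difference from saline was -0.08 ± 0.12 for ketamine and 0.07 ± 0.12 for sleep deprivation. Without ketamine array 3 the ketamine difference was 0.06.

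Drd5 encodes the other D1-class receptor, which binds dopamine more tightly than the D1 receptor does. Its brightest probe set read 183.9, 199.2 and 228.6 after ketamine, 206.3, 186.5 and 210.5 after sleep deprivation, and 191.9, 238.0 and 202.3 after saline. The ranges overlapped throughout, and group membership accounted for 5.13% of its sum of squares over the 9 arrays, against a median of 23.7% over all genes. The differences from saline were -0.04 ± 0.11 for ketamine and -0.06 ± 0.11 for sleep deprivation.

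A dimmer probe set also named Drd5 read 89.4, 86.1 and 90.2 after ketamine, 92.0, 65.4 and 90.6 after sleep deprivation, and 72.4, 82.0 and 76.6 after saline. Here all 3 ketamine arrays lay above all 3 saline arrays, where 14.4% of all genes had groups that did not overlap. The mean of this probe set, 82.7, was above 89.5% of odorant receptor genes, which serve below as background. Put in place of the brighter set, it gave 0.17 ± 0.11 for ketamine minus saline (limma adjusted p = 0.870) and 0.07 ± 0.11 for sleep deprivation minus saline. The probe sets of Drd5 thus disagreed in sign in both comparisons with saline, and neither passed the test.

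Drd2 encodes the D2 receptor, the target of most antipsychotic drugs, found on target neurons and as an autoreceptor on dopamine neurons. The ketamine arrays read 88.9, 88.7 and 86.7, the sleep-deprived arrays 105.1, 94.5 and 87.8, and the saline arrays 95.7, 100.9 and 89.1. All 3 ketamine values lay below all 3 saline values, but ketamine array 1 and saline array 3 were nearly equal. The ketamine arrays were also the tightest, with a coefficient of variation of 1.39% against 6.21% after saline. Ketamine minus saline was -0.10 ± 0.09 (95% interval -0.29 to 0.10, limma adjusted p = 0.875), and sleep deprivation minus saline was 0.01 ± 0.09. Without saline array 2 the ketamine difference was -0.06. Drd2 was the only one of the 6 measured receptors (by the probe set used) whose ketamine and saline groups did not overlap, where 14.4% of all genes behaved so.

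Drd4 encodes the D4 receptor, a D2-class receptor of frontal cortex whose transcript follows a daily rhythm in rodent retina and pineal gland. It read 68.9, 60.7 and 70.3 after ketamine, 47.1, 57.6 and 60.8 after sleep deprivation, and 62.7, 49.1 and 65.8 after saline. The lowest ketamine value stood just below the highest sleep-deprived value, so these groups overlapped by a narrow margin, and the saline arrays spanned most of the range. By the probe sets used, Drd4 was the only one of the 6 receptors with a higher mean after ketamine than after saline, at 0.14 ± 0.11. The difference rested in large part on saline array 2, without which it was 0.04.

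Set directly against sleep deprivation, ketamine gave the largest value of the 6 receptors for Drd4, 0.22 ± 0.11 (95% interval -0.02 to 0.46, limma adjusted p = 0.549). On the linear scale the mean was 66.6 ± 5.20 after ketamine and 55.2 ± 7.16 after sleep deprivation (SD, n = 3 each), a ratio of 1.21. Leaving out single arrays moved this difference between 0.13 (sleep-deprived array 1 removed) and 0.28 (array 3 of that group removed).

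**Figure D1:**
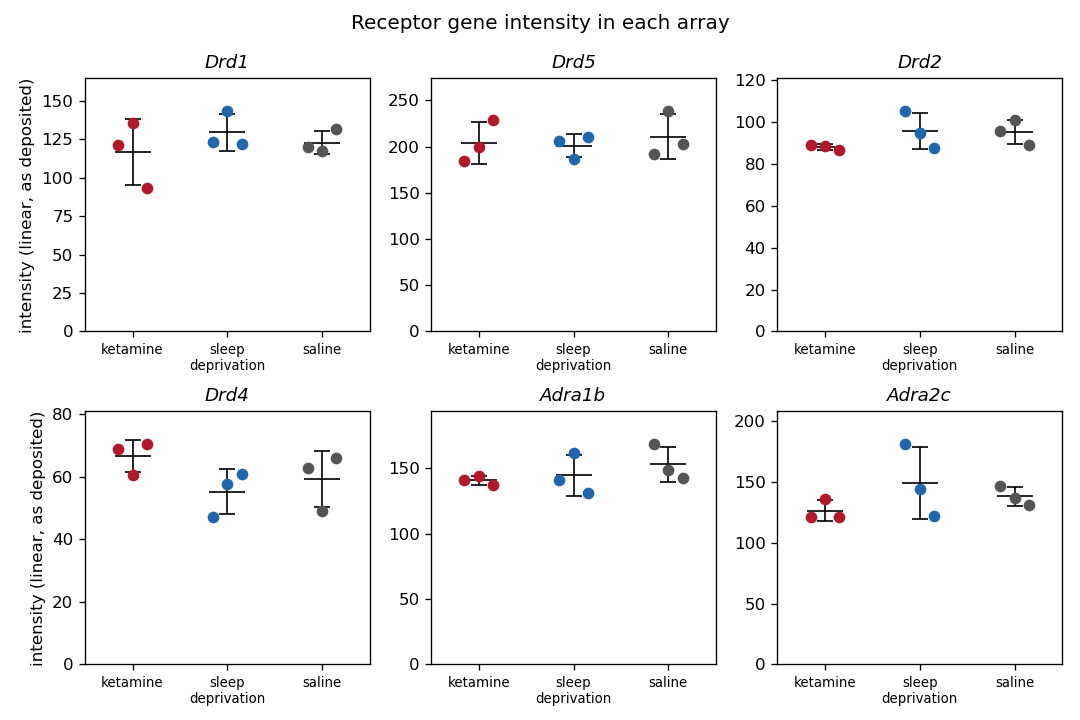
Intensity as deposited (linear vertical axis from 0) of the 6 measured receptor genes in each of the 9 arrays. Points are arrays 1 to 3 of each group from left to right, horizontal bars are group means and whiskers are SD (n = 3); the groups overlap except for Drd2, where the ketamine points lie just below the saline points.

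Adra1b encodes the alpha-1B adrenergic receptor, which couples noradrenaline to phospholipase C. The ketamine arrays read 141.2, 144.1 and 137.3, the sleep-deprived arrays 141.2, 161.7 and 131.0, and the saline arrays 168.3, 148.7 and 142.6. Saline array 1 was the highest, and one ketamine array lay above the lowest saline array. Differences from saline were -0.11 ± 0.10 for ketamine and -0.08 ± 0.10 for sleep deprivation. Without saline array 1 these were -0.04 and -0.01.

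Adra2c encodes the alpha-2C adrenergic receptor, an inhibitory receptor that also limits noradrenaline release from axons. It read 121.2, 136.2 and 121.2 after ketamine, 180.7, 143.8 and 122.2 after sleep deprivation, and 146.3, 136.8 and 131.1 after saline. The sleep-deprived arrays spread most, with array 1 far above array 3, and covered the saline range whole. Ketamine minus saline was -0.12 ± 0.12, sleep deprivation minus saline was 0.08 ± 0.12, and ketamine minus sleep deprivation was -0.20 ± 0.12 (95% interval -0.46 to 0.06, limma adjusted p = 0.586).

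For Adra2c these values moved most with the sleep-deprived arrays. Sleep deprivation minus saline was -0.05 without array 1 of that group and 0.20 without its array 3. Ketamine minus sleep deprivation was -0.065 without array 1 and -0.32 without array 3, where its limma adjusted p was 0.140.

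Across the 6 receptors, the ketamine means were lower than the saline means for 5 and higher for 1, with a median difference of -0.09. Over all genes the ketamine mean was lower for 54.6%, with a median of -0.02. Among the 11090 genes at or above the median intensity it was lower for 73.5%, with a median of -0.06. Drd5, Adra1b and Adra2c were among those brighter genes. After sleep deprivation 3 receptors were lower and 3 higher than after saline, with a median of -0.03, where 53.4% of all genes were lower and the median was -0.01. The groups of that comparison overlapped for all 6 measured receptors and did not overlap for 7.11% of all genes. Between ketamine and sleep deprivation 4 receptors were lower on the ketamine side and 2 higher, where 53% of all genes were lower. Of the genes at or above the median intensity, 72.5% were lower there. All 6 receptors overlapped there too, against 10.1% of all genes whose groups did not. The comparisons share their saline or their treated arrays, so they are not independent of one another.

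The intervals give the size of change that the data leave possible. For ketamine against saline the 95% intervals of the 6 receptors together ran from -0.37 to 0.38, or 0.772-fold to 1.305-fold on the offset scale. For sleep deprivation against saline they ran from 0.801-fold to 1.27-fold, and for ketamine against sleep deprivation from 0.729-fold to 1.38-fold. The SEs lay between 0.09 and 0.12, beside a median of 0.11 over all genes. A p above the threshold does not show that the receptors were at the same level.

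**Figure D2:**
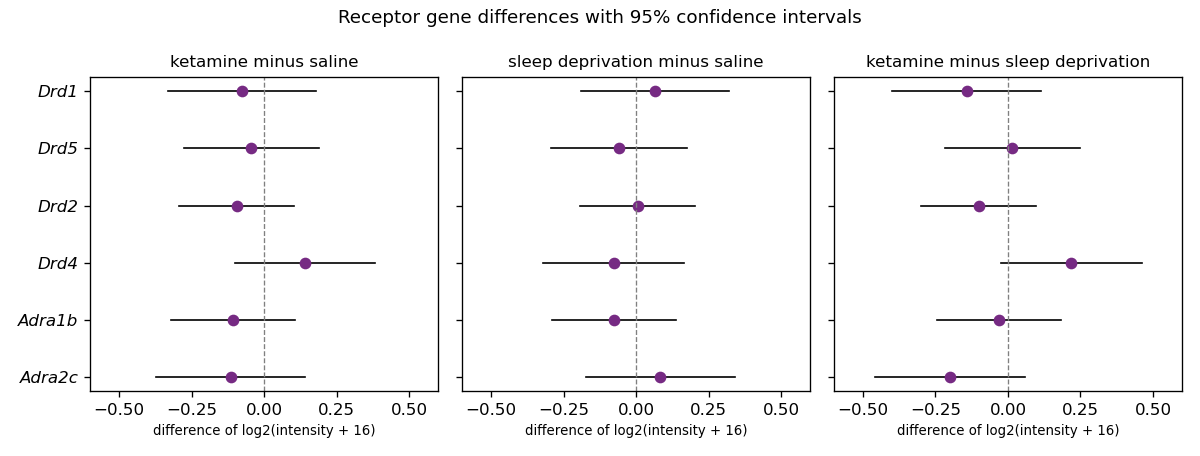
Difference of log2(intensity + 16) on the horizontal axis for the 6 receptor genes in each comparison, as the limma estimate (point) with its 95% confidence interval (line), n = 3 arrays per group. All intervals cross 0; Drd4 and Adra2c in ketamine minus sleep deprivation lie farthest from it, at 0.22 and -0.20.

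How far each receptor stood above background was read against 1105 odorant receptor genes, which are not known to be expressed there. Their mean intensities had a median of 30.4 and a 95th percentile of 113.8. Drd5, Adra1b, Adra2c and Drd1 averaged 205.2, 146.2, 137.7 and 123.0 over the 9 arrays and lay above that percentile. Drd2 averaged 93.0, above 91.5% of odorant receptor genes, and Drd4 averaged 60.3, above 78.6%. Drd4, and to a lesser extent Drd2, therefore sat where many genes taken as silent also read. Among all 22180 genes, the means of Drd5, Adra1b and Adra2c were above those of 64.03%, 54.1% and 52.2%, and the means of Drd1, Drd2 and Drd4 above those of 48.2%, 37.6% and 21.5%. Probe sets differ in how brightly they respond, so these intensities do not rank the receptors by abundance.

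**Figure D3:**
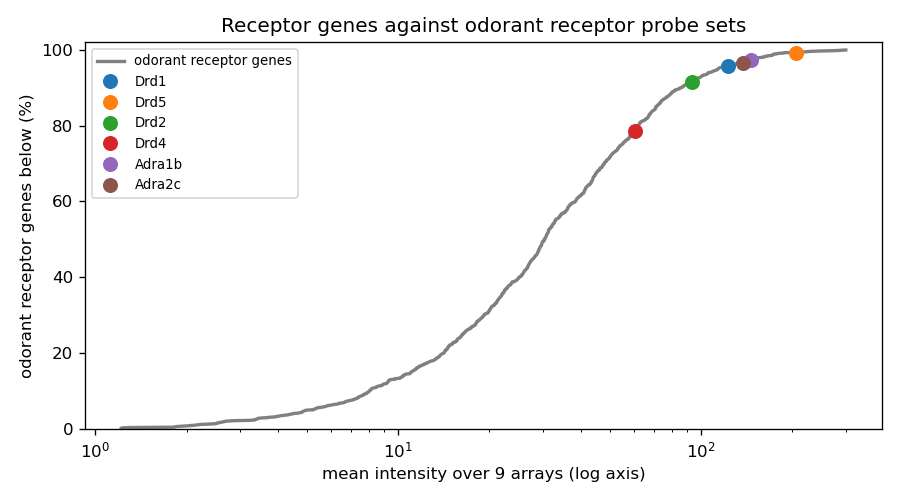
Mean intensity over the 9 arrays (log horizontal axis) against the percent of 1105 odorant receptor genes with a lower mean (vertical axis). The grey curve is the odorant receptor genes and the points are the 6 receptors; Drd4 lies at 78.6% and Drd2 at 91.5%, and the other 4 lie above 95%.

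Variation within groups differed between the receptors. The SD of log2 values around the group means was 0.16 for Drd1 and for Adra2c, above that of 68.2% and 69.0% of all genes. For Drd2 it was 0.08, above that of 10.9% of genes, and for Adra1b 0.10, above 28.1%. Differences between groups made up 37.3% of the sum of squares for Drd4 and 33.9% for Drd2, against the all-gene median of 23.7%.

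The gene whose profile over the 9 arrays was most like each receptor's was sought among 11087 genes at or above the median intensity. For Drd2 this was Nfkbil1 (Pearson r = 0.979, Spearman rho = 0.850), which read 126.4, 124.2 and 126.8 after ketamine, 173.7, 143.5 and 127.9 after sleep deprivation, and 141.7, 161.5 and 134.1 after saline. Both genes were highest in sleep-deprived array 1 and saline array 2, and r was 0.906 without those 2 arrays. For Adra1b it was Tspyl2 (r = 0.953, rho = 1.0, and r = 0.940 without 2 arrays), and for Drd1 Mmp24, a membrane metalloproteinase gene (r = 0.956, rho = 0.900, and r = 0.867 without 2 arrays). Adra2c came closest to Nfatc2, a calcium-regulated transcription factor gene, at r = 0.943 (rho = 0.750), and r fell to 0.774 without 2 arrays. Drd4 and Drd5 came closest to probe sets annotated to Trav12-2 (r = 0.936) and Mir1963 (r = 0.929), with r of 0.769 and 0.744 without 2 arrays. In each case the arrays left out were those farthest from the receptor's median. As the best of 11087 genes over 9 arrays, these values carry no p and describe likeness only.

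Genes that make, store, take up and break down catecholamines were measured for 12 of 14 listed. None passed adjusted p under 0.05 in any comparison (0 of 12 in limma), and at unadjusted p under 0.05 there was 1, Slc6a2 in ketamine minus sleep deprivation, where 9.48% of all genes had such a p. Slc6a2 encodes the noradrenaline transporter, whose transcript is made in locus coeruleus cell bodies. It read 70.3, 72.6 and 93.7 after ketamine, 59.7, 41.9 and 64.1 after sleep deprivation, and 66.7, 61.9 and 77.2 after saline. All ketamine values were above all sleep-deprived values, where groups did not overlap for 10.1% of all genes, and the difference was 0.42 ± 0.13 (limma adjusted p = 0.420). Against saline it was 0.16 for ketamine and -0.26 ± 0.13 for sleep deprivation (limma adjusted p = 1.00).

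These values lie close to background, since the mean of Slc6a2, 67.6, was above 82.9% of odorant receptor genes. Th, the rate-limiting enzyme of catecholamine synthesis, and Slc6a3, the dopamine transporter, also read lowest in sleep-deprived array 2 (106.4 and 75.9) and highest in ketamine array 3 (159.1 and 123.2). Maoa and Maob of the same list went the other way. They read highest in sleep-deprived array 2 (345.7 and 362.6) and lowest in ketamine array 3 (240.3 and 245.6). Those arrays had the lowest and the highest median over all probe sets, 97.7 and 106.2. After quantile normalization, which gives every array the same distribution, Slc6a2 was at 0.39 ± 0.12. What the array medians contribute to these values was not tested further.

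Among the enzymes, Maoa, a monoamine oxidase, had -0.18 ± 0.12 and Pnmt, which makes adrenaline, 0.20 ± 0.13 for ketamine minus saline. Ddc, the decarboxylase that forms dopamine, had 0.12 ± 0.10 there and 0.19 ± 0.10 against sleep deprivation. Gch1, which makes the cofactor of tyrosine hydroxylase, was at -0.23 ± 0.13 in ketamine minus sleep deprivation. Pnmt and Gch1 read near background, with means above 64.4% and 78.6% of odorant receptor genes. Of 3 other catecholamine receptors listed, Drd3 was measured, at 66.2, 67.6 and 85.7 after ketamine, 63.9, 57.2 and 79.8 after sleep deprivation, and 69.4, 71.6 and 68.1 after saline. Its groups overlapped in every comparison, and its differences were 0.05 ± 0.12 for ketamine and -0.06 ± 0.12 for sleep deprivation, each against saline.

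Downstream of the receptors, 28 of 29 listed G protein, adenylyl cyclase, phospholipase C and kinase genes were measured, and 0 passed in limma, adjusted or unadjusted, in any comparison. The ketamine mean was below the saline mean for 23 and above it for 5, with a median of -0.05. After sleep deprivation 18 were higher and 10 lower, with a median of 0.01. Plcb4, a phospholipase C that Gq activates, read 573.7, 496.1 and 430.2 after ketamine, 513.9, 529.4 and 516.4 after sleep deprivation, and 532.0, 607.9 and 590.2 after saline. Its sleep-deprived arrays lay below its saline arrays (-0.14 ± 0.11), while ketamine array 1 lay inside the saline range (-0.21 ± 0.11). Sleep-deprived and saline groups did not overlap for 2 of the 28 genes (1 higher and 1 lower), or 7.1%, where 7.11% of all genes did not. Adcy8, a calcium-stimulated adenylyl cyclase, was at -0.19 ± 0.10 for ketamine minus saline and Prkca, a protein kinase C, at 0.17 ± 0.10 for sleep deprivation minus saline.

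Genes that end or limit the signal, among them receptor kinases, arrestins, RGS proteins and phosphodiesterases, were measured for 24 of 26 listed, and 0 passed in limma, adjusted or unadjusted. For 19 the mean was lower after ketamine than after saline, for 5 it was higher, and the median was -0.06. The groups did not overlap for 7 of the 24, all lower after ketamine, or 29.2%, where 14.4% of all genes did not overlap. Rgs2, which accelerates the shut-off of Gq, read 591.6, 581.8 and 487.0 after ketamine, 507.7, 615.2 and 540.7 after sleep deprivation, and 648.2, 625.7 and 650.1 after saline. Both treated groups lay below every saline array, at -0.21 ± 0.10 for ketamine (limma adjusted p = 0.870) and -0.21 ± 0.10 for sleep deprivation (limma adjusted p = 1.00). Sleep-deprived and saline groups did not overlap for 2 of the 24 genes, or 8.3%, where 7.11% of all genes did not.

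Rgs7, an RGS protein that acts on inhibitory G proteins, read 1546, 1400 and 1460 after ketamine, 1651, 1693 and 1466 after sleep deprivation, and 1667, 1618 and 1760 after saline. Its ketamine arrays were below its saline arrays, at -0.19 ± 0.09. Pde4a, a cyclic AMP phosphodiesterase, was at 0.21 ± 0.10 for sleep deprivation minus saline, with overlapping groups. Many genes of these 2 pathway lists are bright, 27 of 28 and 16 of 24 being among the brightest 25% of all genes. Of that brightest 25%, 80.0% had a lower mean after ketamine than after saline, with a median of -0.07, and 14.3% had groups that did not overlap, while 50.5% were lower in sleep deprivation against saline. The counts of lower pathway genes after ketamine, 23 of 28 and 19 of 24, thus stand beside a share of 80.0% in that set.

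**Figure D4:**
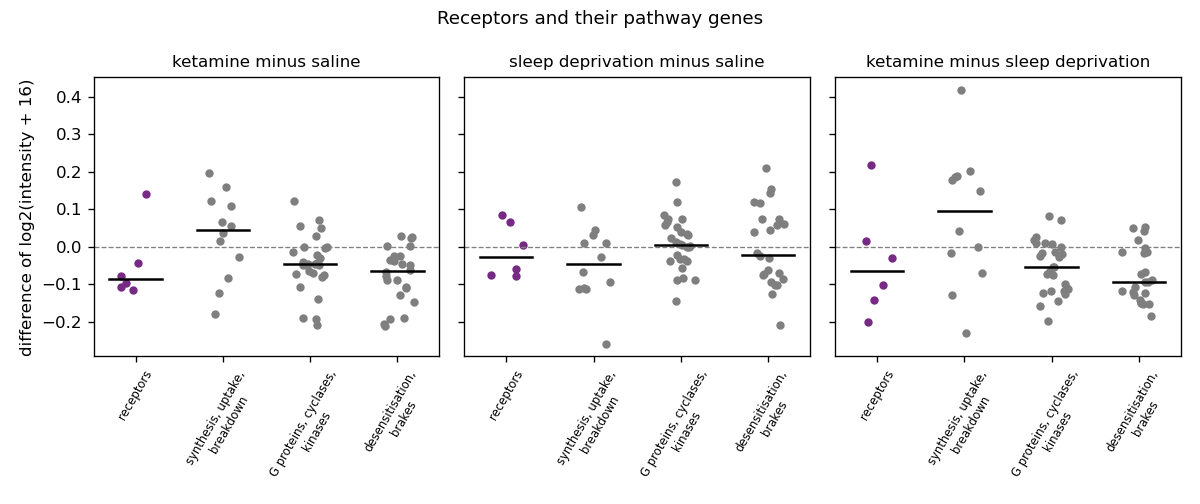
Difference of log2(intensity + 16) on the vertical axis for the 6 receptors (purple) and the measured genes of 3 pathway lists (grey), with a bar at each median. After ketamine the G protein and desensitisation lists have medians of -0.05 and -0.06 relative to saline, and the point at 0.42 in ketamine minus sleep deprivation is Slc6a2.

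The dissected tissue carried the markers of cortical excitatory neurons, of which 5 of 6 listed were measured, including Slc17a7 and Camk2a. Their summed intensity was 10451 to 10854 after ketamine, 10340 to 10888 after sleep deprivation and 10430 to 10868 after saline. The sum rests mostly on Camk2a and Slc17a7, with means of 5022 and 2805. Gene by gene, the sleep-deprived arrays lay above the saline arrays for 2 of the 5, or 40.0%. These were Tbr1 (0.09 ± 0.09) and Neurod6 (0.16 ± 0.09). Of all genes, 7.11% did not overlap in that comparison. Striatal neurons express Drd1 and Drd2 strongly and lie beneath this cortex, so their markers were read as well. Of 10 striatal markers 7 were measured, with sums of 1536 to 1835 after ketamine, 1569 to 1942 after sleep deprivation and 1636 to 1758 after saline, and none listed at 0. Of these, Rgs9 and Pde10a are also among the genes that limit the signal. For sleep deprivation minus saline 3 of these 7 were higher and 4 lower, and for ketamine minus saline 2 were higher and 5 lower, with 0 at unadjusted p under 0.05 in limma in either. In ketamine minus sleep deprivation 3 were higher and 4 lower, with a median of -0.07. There Six3, a transcription factor gene of striatal neurons, was at 0.25 ± 0.10 with an unadjusted p under that level. Of all genes 9.48% had such a p in that comparison. The mean of Six3, 94.1, was above 92.0% of odorant receptor genes. The groups overlapped for this list, and its part in the values of Drd1 and Drd2 was not tested.

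Markers of the upper cortical layers (4 of 4 measured) summed to 2625 to 3041 after ketamine, 2567 to 2997 after sleep deprivation and 3061 to 3530 after saline. The sums of both treated groups thus lay below saline. They rest mostly on Calb1 and Rasgrf2, with means of 1201 and 1045 beside 341 for Cux1 and 376 for Cux2. Gene by gene, the ketamine and saline groups overlapped for all 4, while 14.4% of all genes did not overlap. Sleep-deprived and saline groups did not overlap for 1 of 4, against 7.11% of all genes. That gene was Calb1, a calcium-binding protein gene of these layers, at -0.30 ± 0.11 for sleep deprivation minus saline. Endothelial and mural markers (8 of 8 measured) summed to 3017 to 3249 after ketamine, 3335 to 3435 after sleep deprivation and 2992 to 3298 after saline, so the sleep-deprived arrays lay above all others. Of these 8, 5 were lower at unadjusted p under 0.05 in limma for ketamine minus sleep deprivation, and 0 passed after adjustment. Among all genes 9.48% had such an unadjusted p there, in either direction. Deep-layer markers had higher means than after saline for 5 of 6 after ketamine and for 5 of 6 after sleep deprivation. The exception, Etv1, was at -0.06 and -0.31. For sleep deprivation minus saline 2 of the 6 were higher and 1, Etv1, lower at unadjusted p under 0.05 in limma, against 3.52% of all genes. All 6 measured astrocyte markers had lower means after ketamine than after saline, with overlapping sums in both lists. Of these 6, 4 were among the brightest 25% of genes, of which 80.0% were lower after ketamine. Over all genes 54.6% were lower after ketamine and 53.4% after sleep deprivation. Oligodendrocyte markers (5 of 6 measured) were all lower after sleep deprivation than after saline, and all higher after ketamine than after sleep deprivation. Their sums overlapped, and ran from 2499 to 4413 within the ketamine group. Of 6 inhibitory neuron markers, 1 (Sst) was higher and 1 (Vip) lower at unadjusted p under 0.05 in limma for ketamine minus saline. They were at 0.23 ± 0.10 and -0.28 ± 0.11, and 4.57% of all genes had such a p. The part of these shifts in the receptor values was not tested. Choroid plexus markers (4 of 5 measured) summed to 467 to 798 after ketamine, 357 to 771 after sleep deprivation and 422 to 9242 after saline, where saline array 2 was the highest. Ttr alone read 8428 in that array. Saline array 2 also read highest for Drd5 and lowest of its group for Drd4. Saline array 1 had the next highest choroid plexus sum, 1961, and read lowest of its group for Drd5, at 191.9. Without saline array 2 the Drd5 difference was 0.04 for ketamine and 0.03 for sleep deprivation, each against saline. Whether choroid plexus tissue bears on the receptor values was not tested.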

How the data were processed

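Affymetrix arrays of 9 mice, 3 per group, were used. Expression Console 1.1.1 of Affymetrix and the probe set summary method PLIER 2.0 were used by the authors, per the submitters' processing notes. The deposited values are linear intensity values for 41345 probe sets. For background correction and normalization between arrays the method is not given in the sources used here. The median of an array was 97.7 at the lowest and 106.2 at the highest, and the number of arrays limits the precision. The labels call the replicates biological. Array numbers in the labels are 1, 2 and 4 for saline, 6, 7 and 8 for sleep deprivation, and 10, 11 and 12 for ketamine. This numbering has gaps and runs in order by group, so array order and group cannot be told apart. Depth does not apply to arrays.

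Gene names came from the platform annotation, updated through gene identifiers to RefSeq. Of the probe sets, 23521 had 1 gene, 1814 several and 16010 none; the brightest per gene was kept, giving 22180 genes. Values of log2(intensity + 16) were fitted across all genes with limma 3.58.1 in R 4.3.3, all 9 arrays together (6 residual degrees of freedom), with Benjamini-Hochberg adjustment over all genes. On simulated data of 22180 genes, with 200 of them changed in ketamine against saline, it found 69% of log2 changes of 0.5 and 100% of log2 changes of 1. Changes of 0.5 were found for 66% in sleep deprivation against saline and 61% in ketamine against sleep deprivation. The simulated noise of a gene was independent and of equal spread in every array. Real arrays need not be so, and recovery in them may be lower. The 200 changed genes, with both sizes present together, also loosened the Benjamini-Hochberg cutoff. In the real data 0 genes passed, so the cutoff for a receptor was stricter. These recovery rates therefore overstate how often a receptor change of 0.5 would be found. Named genes were the 6 measured receptors, up to 3 genes of smallest unadjusted p per pathway list and comparison, and the gene most like each receptor. Th, Slc6a3, Maob, Calb1 and the cell markers were named after their values were seen. The receptors and lists were chosen with earlier results of these data known. The comparison of receptor protein sequences was not made here.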

Additional observations from a re-analysis of the deposited data

How the results depend on the processing

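The receptors passed in limma in no comparison (0 of 6) under any of the alternatives run: offsets of 1 and 64, quantile normalization, centring on array medians, removal of the dimmest genes, averaging of probe sets, limma-trend, array weights, fits to the 6 arrays compared, a replicate block, and each array left out in turn. Drd4 dropped out with the dimmest 33.3% of genes. Apart from the removal of arrays, their differences ran from -0.13 to 0.18 for ketamine minus saline, -0.16 to 0.17 for sleep deprivation minus saline and -0.22 to 0.27 for ketamine minus sleep deprivation, and the smallest adjusted p was 0.341, for Adra2c in the last of these with array weights. Samples with the same replicate number did not deviate together in every pair (r from -0.201 to 0.444), so the numbers are not taken as pairs, and with the replicate block 0 receptors and 0 genes passed.

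Small differences changed sign without passing the test. With array weights, in which ketamine array 2 weighed 7.92, Drd1 was at 0.0761 for ketamine minus saline and 0.052 for ketamine minus sleep deprivation, and Adra1b was at 0.0099 and Drd5 at -0.0244 for ketamine minus sleep deprivation. Drd5 was also at 0.0629 (ketamine) and 0.008 (sleep deprivation) against saline when its probe sets were averaged, at 0.014 for ketamine minus saline after quantile normalization, and at -0.0065 for ketamine minus sleep deprivation after centring. With single arrays left out, sleep deprivation minus saline ran from -0.0507 to 0.2038 for Adra2c, -0.0002 to 0.1103 for Drd1, -0.0537 to 0.0574 for Drd2, -0.178 to 0.0068 for Drd4 and -0.1189 to 0.0257 for Drd5. Ketamine minus saline ran from -0.1791 to 0.0556 for Drd1 and -0.1232 to 0.0408 for Drd5, and ketamine minus sleep deprivation from -0.0916 to 0.0451 for Adra1b and -0.0643 to 0.0814 for Drd5. The cause of these moves was not tested.

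Over all genes, where 0 passed in each comparison, array weights gave 1439 for ketamine minus saline and 42 for ketamine minus sleep deprivation. In that second comparison the count was 5 without the dimmest genes, 16 with limma-trend, 14 with an offset of 64 and 0 to 214 with single arrays left out, the highest without sleep-deprived array 3. Sleep deprivation minus saline gave 1 after centring, 4 with limma-trend and 0 to 4 with single arrays left out. None of these genes was a receptor of the list. Dimness limits Drd4 and Drd2 most.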
